A study of Mus musculus with 4 samples.

Results

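Peaks of a STAT3 chromatin immunoprecipitation (ChIP-seq) that lie at the ends of protein-coding genes were taken from 2 deposited peak lists, 1 for injured (SCI) and 1 for sham-operated mouse spinal cord. A peak belonged to the set when its centre lay within 1 kb of either end of a protein-coding gene of the RefSeq annotation of GRCm38, on chromosomes 1 to 19 and X, and is called an end peak. By this rule 1187 of 36239 SCI peaks and 2879 of 88757 sham peaks were end peaks. Both groups were C57BL/6 mice, and cells were dissociated from the spinal cord at the surgery site on day 7. SCI mice had a moderate contusion of 60 kdyn at thoracic level 9, and sham mice had the laminectomy at that level without a contusion. Each condition gave 1 ChIP library, from tissue pooled over 3 mice, and the labels describe no sort for a cell type. Peak positions hold no expression values, so the labelled cell source could not be set against marker genes. There are no replicates, so no difference between SCI and sham given here has a replicate check and no test was run.

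STAT3 is phosphorylated by JAK kinases when cytokines of the interleukin-6 family engage their receptors, and it then binds DNA as a dimer. The dimer prefers the palindrome TTCNNNGAA, where N is any base. Transcription begins at the gene start, next to the promoter, and the transcript is cleaved and polyadenylated at the gene end. In the injured cord STAT3 is known for its part in the reaction of astrocytes to damage.

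For genes of known strand, the promoter was read as a window of 300 bases, 250 before the transcription start and 50 after it (RefSeq, GRCm38.p6). In 19 of 15533 such windows a peak of each list lay over the window. The windows printed first are those of these 19 that ranked best in both lists. They show what lies under and beside a promoter peak found in both libraries. Capitals mark matches to TTCNNNGAA, which reads the same on both strands, and unbroken runs of at least 12 A or 12 T. Only Mitd1 and Mrpl30 held TTCNNNGAA. They are neighbours transcribed in opposite directions, and their windows overlap and read the same DNA from opposite strands.
Mitd1: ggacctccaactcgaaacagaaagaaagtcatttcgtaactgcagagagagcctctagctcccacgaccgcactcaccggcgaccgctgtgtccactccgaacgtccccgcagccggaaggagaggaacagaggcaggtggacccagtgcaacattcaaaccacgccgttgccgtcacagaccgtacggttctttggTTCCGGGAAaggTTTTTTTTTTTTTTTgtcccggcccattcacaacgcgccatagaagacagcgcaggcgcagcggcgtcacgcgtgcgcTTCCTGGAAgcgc
Mrpl30: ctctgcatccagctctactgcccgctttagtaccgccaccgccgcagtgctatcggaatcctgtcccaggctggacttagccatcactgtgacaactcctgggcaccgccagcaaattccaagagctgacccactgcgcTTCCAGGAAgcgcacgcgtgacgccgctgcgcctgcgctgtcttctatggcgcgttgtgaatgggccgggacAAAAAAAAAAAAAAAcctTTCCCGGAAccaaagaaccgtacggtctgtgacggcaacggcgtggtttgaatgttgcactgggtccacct
Gfi1: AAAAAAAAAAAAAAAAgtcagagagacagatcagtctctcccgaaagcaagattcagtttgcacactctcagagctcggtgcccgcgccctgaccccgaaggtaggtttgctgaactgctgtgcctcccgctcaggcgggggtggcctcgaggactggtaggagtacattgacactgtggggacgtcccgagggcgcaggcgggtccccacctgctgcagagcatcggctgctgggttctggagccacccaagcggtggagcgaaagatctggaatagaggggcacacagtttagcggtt
Kpna2: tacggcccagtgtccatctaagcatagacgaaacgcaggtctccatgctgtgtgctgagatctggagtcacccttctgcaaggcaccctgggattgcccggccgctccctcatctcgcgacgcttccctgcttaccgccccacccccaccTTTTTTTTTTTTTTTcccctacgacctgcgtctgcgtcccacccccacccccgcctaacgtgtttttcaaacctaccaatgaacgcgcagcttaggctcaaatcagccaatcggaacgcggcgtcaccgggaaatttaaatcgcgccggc
Hs3st3a1: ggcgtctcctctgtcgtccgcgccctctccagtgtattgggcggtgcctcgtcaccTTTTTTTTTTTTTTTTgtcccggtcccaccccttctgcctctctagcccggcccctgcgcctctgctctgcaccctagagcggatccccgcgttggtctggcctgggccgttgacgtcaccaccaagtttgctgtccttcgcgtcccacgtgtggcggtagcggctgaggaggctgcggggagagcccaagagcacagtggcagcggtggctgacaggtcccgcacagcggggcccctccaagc

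Mitd1 (minus strand, chr1:37890362-37890661) encodes a protein of cytokinesis and Mrpl30 (plus strand, chr1:37890227-37890526) a mitochondrial ribosomal protein. The SCI peak covered bases 123 to 286 of the Mitd1 window and the sham peak bases 68 to 257. Under both peaks lay the match TTCCGGGAA at bases 198 to 206, followed by a run of 15 T at bases 210 to 224. A further match, TTCCTGGAA at bases 288 to 296, lay outside both peaks. The SCI peak had a score of 7.14 (top 51.9% of the SCI list) and the sham peak a score of 31.0 (top 2.42% of the sham list).

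Gfi1 (minus strand, chr5:107725756-107726055) encodes a transcriptional repressor of myeloid cells, Kpna2 (minus strand, chr11:106999476-106999775) an importin, and Hs3st3a1 (plus strand, chr11:64435082-64435381) a heparan sulfate sulfotransferase. Their windows held no TTCNNNGAA, and each held 1 run, of 16 A, 15 T and 16 T in that order. The Gfi1 peaks lay in the top 23.8% (SCI) and 10.2% (sham), the Kpna2 peaks in the top 19.8% and 22.2%, and the Hs3st3a1 peaks in the top 56.8% and 10.5%. In the Kpna2 window the SCI peak covered bases 1 to 127 and the sham peak bases 54 to 243. Its run of T at bases 151 to 165 thus lay under the sham peak alone. The SCI peak reached only bases 1 to 5 of the Hs3st3a1 window and the sham peak bases 1 to 37. The run of T in that window began at base 57, just past both.

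The next windows were chosen after their values were seen, to show promoters with a peak in 1 list: Terf2ip and Elane in SCI alone and Spp1 in sham alone.
Terf2ip: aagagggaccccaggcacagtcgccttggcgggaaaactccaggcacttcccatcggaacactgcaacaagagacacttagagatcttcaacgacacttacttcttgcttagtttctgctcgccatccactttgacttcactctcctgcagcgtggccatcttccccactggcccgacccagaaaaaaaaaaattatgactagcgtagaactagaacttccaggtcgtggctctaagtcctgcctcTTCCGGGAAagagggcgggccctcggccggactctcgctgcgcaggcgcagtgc
Elane: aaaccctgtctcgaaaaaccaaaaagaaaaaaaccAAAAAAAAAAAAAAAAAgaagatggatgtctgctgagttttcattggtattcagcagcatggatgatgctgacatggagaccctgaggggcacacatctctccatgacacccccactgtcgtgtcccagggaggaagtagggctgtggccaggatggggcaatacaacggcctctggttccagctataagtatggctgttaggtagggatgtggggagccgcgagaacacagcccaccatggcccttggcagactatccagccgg
Spp1: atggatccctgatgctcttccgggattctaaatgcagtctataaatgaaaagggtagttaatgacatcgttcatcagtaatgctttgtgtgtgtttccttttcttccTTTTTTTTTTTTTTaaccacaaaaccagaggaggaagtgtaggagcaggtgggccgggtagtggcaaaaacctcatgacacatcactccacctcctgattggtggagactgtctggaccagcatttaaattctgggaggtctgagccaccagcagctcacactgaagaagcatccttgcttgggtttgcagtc

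Terf2ip (plus strand, chr8:112011109-112011408) encodes a telomere protein, and its SCI peak over bases 125 to 288 (score 6.89, top 56.4%) covered the match TTCCGGGAA at bases 247 to 255. Elane (plus strand, chr10:79886062-79886361) encodes neutrophil elastase. Its SCI peak over bases 120 to 283 (score 12.6, top 15.0%) had a run of 17 A upstream of it, at bases 36 to 52. Spp1 (plus strand, chr5:104434861-104435160) encodes osteopontin, a product of activated macrophages. Its sham peak over bases 11 to 200 (score 44.8, top 0.583%) spanned a run of 14 T at bases 108 to 121.

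Windows with a promoter peak held the palindrome at shares within counting error of that of all windows. TTCNNNGAA was found in 12 of 92 windows with an SCI peak over them, 13.0% (95% exact interval 6.93 to 21.7%), and in 20 of 213 windows with a sham peak, 9.39% (5.83 to 14.1%). Of all 15533 windows 7.91% held it, and of the 15247 windows with no peak in either list 7.86%. Both intervals include the share of all windows. The match itself lay under the peak in 5 of the 92 SCI windows and 7 of the 213 sham windows. A peak can cover only part of a window, and no share was computed for stretches of like length without a peak. These 2 counts thus do not show whether matches under peaks were many or few. Windows are counted singly although neighbours can share a peak, and the 92 SCI windows had 85 peaks and the 213 sham windows 203. Among windows with the match under the peak, Mitd1 and Mrpl30 share a peak and a match in both lists. Terf2ip and its neighbour Kars do so in SCI. The pattern GAANNNTTC, the palindrome with TTC and GAA swapped, keeps the base composition. It was found in 4.35% of SCI windows (1.20 to 10.8%), 10.3% of sham windows (6.59 to 15.2%) and 6.44% of all windows. Its sham interval lies above the share of all windows, and its SCI interval includes that share. All intervals here are Clopper-Pearson intervals that cover counting error only, and the absence of a match says only that these letters are not in the window.

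Runs of A or T were far more common in promoter windows under peaks than in other promoter windows, in both libraries. This feature was chosen after the sequences had been seen. A run of at least 12 A or 12 T stood in 36 of 92 windows with an SCI peak, 39.1% (29.1 to 49.9%), and in 70 of 213 windows with a sham peak, 32.9% (26.6 to 39.6%). The share was 2.70% (2.45 to 2.97%) of all windows and 2.14% (1.92 to 2.39%) of windows with no peak. Where peaks of both lists lay over the window it was 13 of 19, 68.4% (43.4 to 87.4%). Here too, neighbouring windows that share a peak are counted singly, and the intervals treat them as separate. Runs of at least 12 G or 12 C stood in 0 of 92 SCI windows (0 to 3.93%), in 4 of 213 sham windows, 1.88% (0.514 to 4.74%), and in 1.38% of all windows.

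Read from the sequence side, 0.592% of all promoter windows had an SCI peak over them and 1.37% a sham peak. Windows with a run of at least 12 A or T had an SCI peak in 8.57% of 420 cases (6.08 to 11.7%), against 0.371% (0.280 to 0.481%) of the 15113 windows without. For sham peaks the shares were 16.7% (13.2 to 20.6%) with a run and 0.946% (0.798 to 1.11%) without. The step lay between the classes with a longest run of 9 to 11 and of 12 to 14 bases. At 9 to 11 bases 0.840% of 357 windows had an SCI peak and 1.12% a sham peak, and at 12 to 14 bases 6.49% and 9.19% of 185 windows did. At 15 to 17 bases the shares were 11.4% and 23.8% of 105 windows. In each of 3 classes of CpG number, windows with a run had a peak more often than windows without. The most CpG-rich class had SCI peaks in 13.4% with a run and 0.392% without, and sham peaks in 29.3% with a run and 0.667% without. Per the labels, all libraries were made with the DNA SMART ChIP-Seq Kit, which adds a homopolymer tail to the DNA fragments as a priming site. Its part in the result was not tested, and the input libraries were not analysed here.

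**Figure D1:**
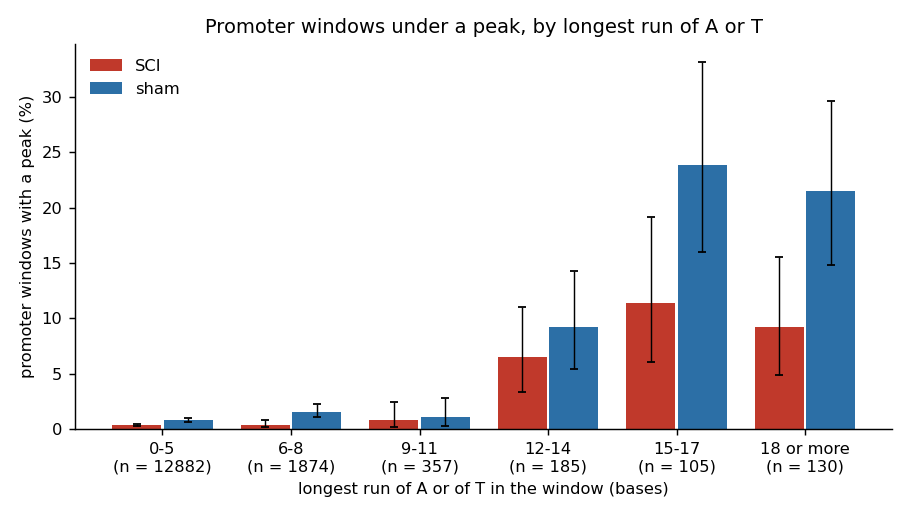
Percent of promoter windows (y axis) with an SCI (left bar) or sham (right bar) peak over them, by the longest run of A or of T in the window (x axis, bases, with the number of windows). Error bars are 95% exact binomial intervals, which cover counting error only, and shares stay at or below 1.60% up to 11 bases and lie at 6.49% or above from 12 bases on.

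The runs lay mostly on 1 side of the peak. Written on the plus strand, 16 of 18 A runs lay left of the centre of the SCI peak, at a median of -81.2 bp, and 15 of 17 T runs lay right of it, at a median of 94.0 bp. All 32 A runs lay left of the centre of the sham peak (median -73.8 bp) and all 41 T runs right of it (median 58.5 bp). On the strand where the run reads A, it thus usually lay 5′ of the peak centre. The Gfi1, Elane and Mitd1 windows above show this arrangement.

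**Figure D2:**
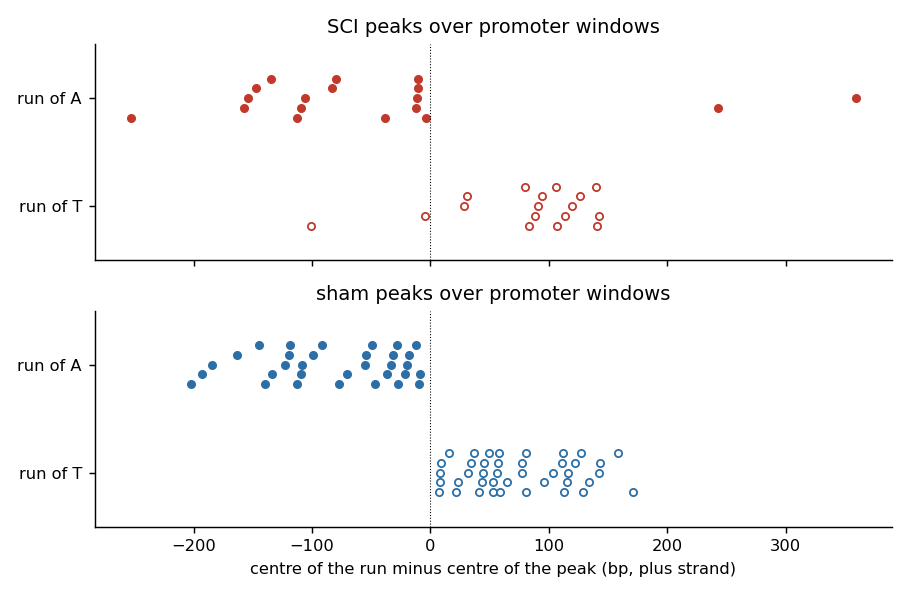
Distance in bp on the plus strand from the centre of the peak to the centre of each run of at least 12 A (filled points) or 12 T (open points) in a promoter window, for SCI peaks (upper panel) and sham peaks (lower panel). Each point is 1 run, vertical scatter within a row carries no value, and the sham panel has no A run right of 0 and no T run left of it.

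Whether a window held a run went with the form of the peak's score. The score is the authors' own value for each peak, at least 5 in every row, and can be compared only within a list. In part of each list the score plus 1 was 2 times the square root of an integer (to within 0.0001 of that integer), here called the square-root form. Among windows whose peak had such a score, a run stood in 0 of 26 SCI windows (0 to 13.2%) and 0 of 59 sham windows (0 to 6.06%). Among windows whose peak had any other score, the shares were 54.5% of 66 SCI windows (41.8 to 66.9%) and 45.5% of 154 sham windows (37.4 to 53.7%). Score height was not matched between these groups of windows. With peaks at or above the median score of their list, a run stood in 41.0% of SCI and 45.8% of sham windows. What gives a score this form was not tested.

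Gene starts held fewer peaks than the sequence around them. In these densities, inside means towards the gene, with no limit on gene length. In short genes the flank at 2 to 5 kb inside therefore lay partly or wholly past the other end. In all densities by distance, a peak near the starts or ends of several genes counts once at each, as does the sequence there. The intervals treat these counts as separate. Within 500 bp inside the start of genes of known strand there were 10.3 SCI peak centres per Mb (8.28 to 12.7), against 17.9 per Mb (16.8 to 19.1) at 2 to 5 kb inside. Their ratio was 0.575 (0.458 to 0.716). Sham had 24.8 (21.6 to 28.3) and 44.9 (43.1 to 46.8) per Mb, a ratio of 0.552 (0.477 to 0.635). Upstream of the start the ratio was 0.862 (0.717 to 1.03) in SCI and 0.712 (0.630 to 0.804) in sham. The interval includes 1 in SCI and not in sham. Moving each promoter window 4 kb upstream raised the number with a peak to 131 for SCI, against 92 in place, and to 366 for sham, against 213 in place.

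Gene ends showed a step at the end itself. Within 500 bp inside the gene end there were 9.73 SCI peaks per Mb (ratio 0.615 to the 2 to 5 kb inside, 0.485 to 0.770) and 29.9 sham peaks per Mb (ratio 0.731, 0.640 to 0.832). Just outside the gene end there were 21.0 SCI peaks per Mb (ratio 1.24, 1.05 to 1.46) and 47.6 sham peaks per Mb (ratio 1.06, 0.955 to 1.18). Where the strand was not known, starts and ends were counted together, with ratios inside the gene of 0.652 (0.477 to 0.874) in SCI and 0.688 (0.568 to 0.826) in sham. Outside such genes the ratios were 0.940 (0.730 to 1.20) in SCI and 0.901 (0.769 to 1.05) in sham. At gene ends of known strand, the interval of the SCI ratio outside included 1 without scores of the square-root form (1.18, 0.970 to 1.43). It also did so at scores from the list median up (1.18, 0.931 to 1.47) and at isolated ends (1.28, 0.992 to 1.64). Isolated ends are those of genes of 10 kb or more with no other gene end within 5 kb.

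**Figure D3:**
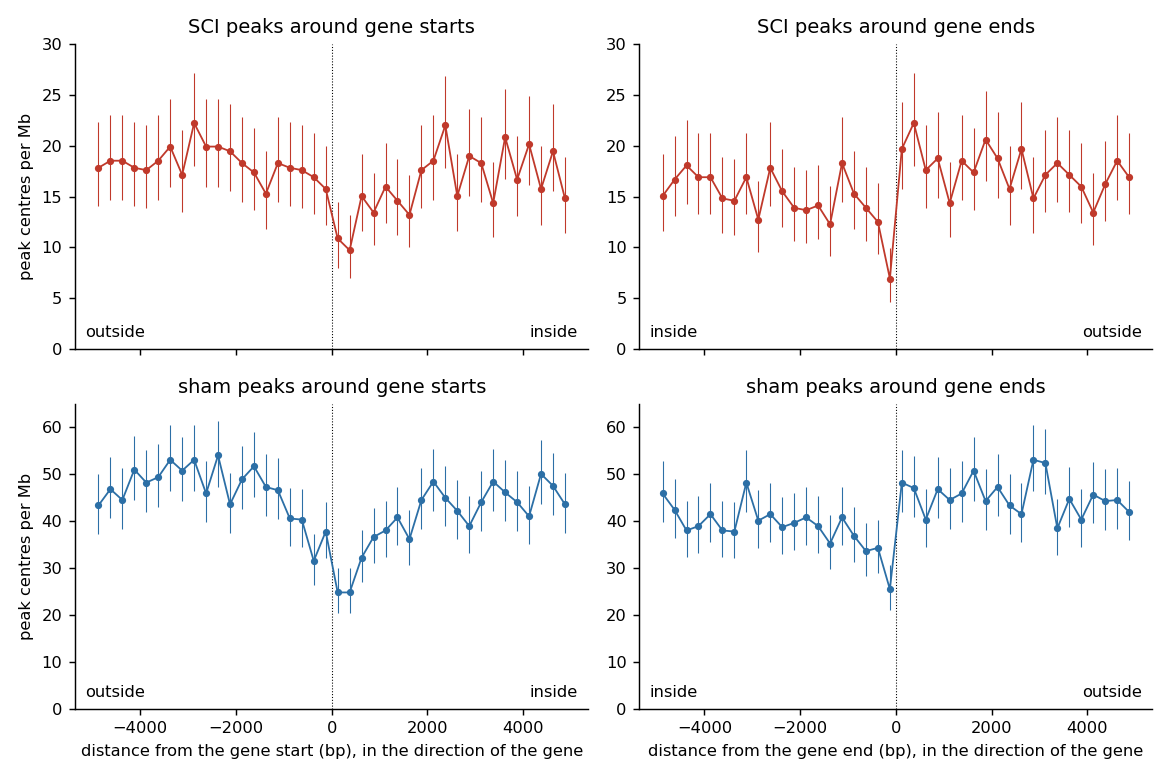
Peak centres per Mb (y axis) in bins of 250 bp around the starts (left) and ends (right) of 17273 protein-coding genes of known strand, with SCI above and sham below and transcription running left to right. Error bars are 95% exact Poisson intervals, and the lowest densities lie just inside the gene at both its start and its end.

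The ratio of the density at starts to that of the flank differed between promoters by their CpG number, and most of the difference lay in the flank. Just inside the start the densities had overlapping intervals in the 3 classes, from few to many CpG, at 11.2 (7.50 to 16.1), 8.89 (5.63 to 13.3) and 9.27 (5.94 to 13.8) SCI peaks per Mb. In sham they were 27.04 (21.1 to 34.2), 21.6 (16.3 to 28.1) and 20.5 (15.3 to 26.8) peaks per Mb. In the 5178 promoters with the fewest CpG (0 to 6 per window, median GC 45.0%) the ratio just inside the start was 0.809 (0.529 to 1.20) in SCI and 0.913 (0.700 to 1.18) in sham. In the middle class (6 to 21 CpG) it was 0.441 (0.275 to 0.674) in SCI and 0.404 (0.302 to 0.530) in sham. In the class with the most CpG (21 to 65, median GC 67.3%) it was 0.463 (0.292 to 0.702) in SCI and 0.391 (0.290 to 0.516) in sham. The intervals of the SCI ratios overlap between classes. The flanks at 2 to 5 kb on the gene side differed. They held 13.8 SCI and 29.6 sham peaks per Mb in the CpG-poor class, and 20.02 SCI and 52.4 sham peaks per Mb in the CpG-rich class. Gene length was not limited or matched between the classes, so part of these flanks may lie past the gene. Windows with a run of A or T made up 3.30% of the CpG-poor class and 1.58% of the CpG-rich class, and the part of GC content or of runs in the low density was not tested.

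**Figure D4:**
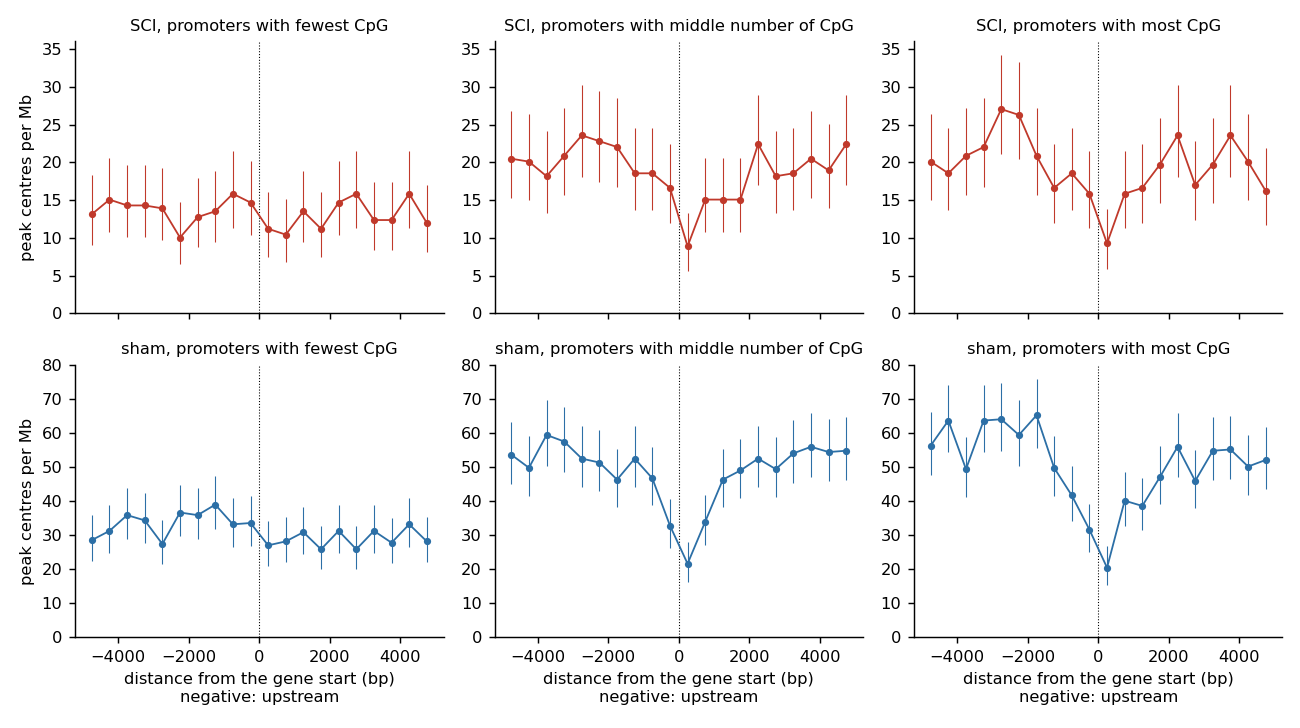
Peak centres per Mb (y axis) in bins of 500 bp around gene starts (x axis, bp, negative upstream) for SCI (upper row) and sham (lower row), in promoters with the fewest, a middle number and the most CpG (left to right). Error bars are 95% exact Poisson intervals, and the middle and right panels have higher flanks around a start density like that of the left panels, where the ratios to the flank are 0.809 (SCI) and 0.913 (sham).

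End peaks made up close shares of the lists, 3.28% (3.09 to 3.46%) in SCI and 3.24% (3.13 to 3.36%) in sham. By the nearest gene end, 456 SCI end peaks lay at a start, 496 at an end and 235 at a gene whose strand was not known. In sham these numbers were 1048, 1242 and 589. Starts thus took 47.9% (44.7 to 51.1%) of the 952 SCI end peaks of known strand and 45.8% (43.7 to 47.8%) of the 2290 in sham. The centre lay inside the gene in 43.2% of SCI and 44.8% of sham peaks at starts, and in 37.3% of SCI and 41.4% of sham peaks at ends. At the edge of the rule, 121 SCI peaks lay 900 to 1000 bp from a gene end with a median score of 7.65, and 128 lay 1000 to 1100 bp away with a median of 7.79. In sham 285 peaks just inside had a median of 8.58 and 313 just outside 8.17. Across chromosomes, SCI had between 4.17 (chromosome 6) and 8.76 (chromosome 15) end peaks per 100 genes, and sham between 9.59 (chromosome 6) and 15.5 (chromosome 8).

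End peaks were like the other peaks of their list in score and in overlap with the other list. The median score was 7.37 for SCI end peaks and 7.37 for SCI peaks elsewhere, and 8.31 for sham end peaks against 8.05 for sham peaks elsewhere. Peaks count as shared where an SCI and a sham peak have 1 bp or more in common. That held for 270 SCI end peaks, 22.7% (20.4 to 25.2%), against 21.6% of SCI peaks elsewhere, and for 260 sham end peaks, 9.03% (8.01 to 10.1%), against 8.84% of sham peaks elsewhere. The SCI and sham shares count nearly the same overlaps over lists of different length, so the gap between them says nothing further. With equal numbers of top-scoring peaks the shares of end peaks were 15.1% in SCI and 13.96% in sham, which are close by construction. Among the top 20% of scores, 39.0% of 249 SCI end peaks were shared, against 37.0% of SCI peaks elsewhere, and 15.0% of 601 sham end peaks, against 17.4% of sham peaks elsewhere. Among the lowest 20%, 13.1% of 222 SCI end peaks were shared, against 12.7% elsewhere, and 3.10% of 549 sham end peaks, against 3.84% elsewhere. Shared end peaks sat at nearly the same place in both lists, with a median distance between centres of 58.2 bp seen from SCI. For 257 of the 270 shared SCI end peaks the sham partner was an end peak too.

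Of 21627 protein-coding genes, 1247 had an SCI end peak (5.77%) and 2866 a sham end peak (13.3%). An end peak in both lists was found at 417 genes (1.93%), in SCI alone at 830 (3.84%) and in sham alone at 2449 (11.3%). The 417 were 33.4% of the genes with an SCI end peak and 14.6% of those with a sham end peak, and at 283 of them the positions overlapped. Of 17273 genes of known strand, 496 had an SCI peak at the start (2.87%) and 538 at the end (3.11%). Sham had 1127 at the start (6.52%) and 1303 at the end (7.54%). Both ends of the same gene had a peak within 1 kb at 40 genes in SCI and 171 in sham. These counts include short genes at which a single peak lay within 1 kb of both ends. The sham list held more peaks in all, and with it shortened to the SCI number 1272 genes had a sham end peak.

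The 10 highest-scoring SCI end peaks included no member of the gene lists described further on. The first was beside Azin2, an antizyme inhibitor of polyamine metabolism (chr4:128963075-128963173, 668 bp from an end, score 51.6, rank 24 of the SCI list), and a sham peak overlapped it (top 8.60%). Rbl2, a pocket protein of the retinoblastoma family, had a peak 947.5 bp outside its end (chr8:91124749-91124834, score 38.8, rank 78), with a sham peak at rank 3052. Rpl26, a ribosomal protein gene (score 36.6), the deubiquitinase gene Usp7 (35.7) and the histone reader gene Zmynd11 (33.1) had SCI end peaks with no sham peak over them. The others lay at 1700066B19Rik, Gm9376, Adhfe1 with Rrs1, Lbhd1 and LOC115486439, with scores between 32.3 and 35.1. In all, 5 of these 10 peaks overlapped a sham peak, as did 39.0% of all SCI end peaks in the top 20% of scores. Several were narrower than the usual 164 bp, such as the 50 bp at Lbhd1, while 99.2% of all SCI end peaks had the usual width.

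The 10 highest-scoring sham end peaks were led by Ppp6r2, a regulatory subunit of a protein phosphatase, at chr15:89286390-89286579, 530.5 bp from its end (score 75.5, rank 30 of the sham list). The SCI peak there scored 14.2 and ranked 3852 in its own list. Next came Pth1r, the parathyroid hormone receptor gene (score 69.7, 25.5 bp from its end), and Carhsp1, an RNA-binding protein gene (score 68.1, 287.5 bp from its start). Neither had an SCI peak over it. Csf1r, the receptor on which microglia depend, had a sham end peak of score 58.3 (chr18:61105844-61105941, rank 141) with an SCI peak of score 16.3 over it (top 7.10%). The others lay at Pabpc1l, Parp3, Gapvd1, Prpf19, Cyp2b23 and Mdm2, and of these the one at Cyp2b23 was shared. In all, 3 of the 10 were shared, as were 15.0% of all sham end peaks in the top 20% of scores. Most were narrower than the usual 190 bp, such as the 66 bp at Carhsp1, while 99.1% of all sham end peaks had the usual width.

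The shared end peaks that ranked best in both lists lay at Rbl2, Lhx6, Utp20, Nbr1 with Tmem106a, Rusc1, Ankrd33b, Igf2bp2, Csf1r, Ppp6r2 and Mrpl46. Of these, 8 were nearest a gene end, the one between Nbr1 and Tmem106a was nearest the start of Tmem106a, and the strand of Csf1r was not known. Among all 270 shared SCI end peaks 119 were nearest a gene end, and among all SCI end peaks 41.8%. At Lhx6, a transcription factor gene of interneurons, the SCI peak (chr2:36080891-36081054) scored 24.4 (top 1.66%) and the sham peak 27.0 (top 3.89%). At Utp20, a gene of ribosome assembly, the SCI peak (chr10:88746032-88746195) scored 24.1 (top 1.72%) and the sham peak 33.1 (top 1.92%). Igf2bp2, an mRNA-binding protein gene, had its SCI peak 73.5 bp from the gene end (score 16.8, top 6.34%), with the sham peak in the top 3.31%.

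The largest number of end peaks at 1 gene over both lists was 4, at Islr, Lum, Pdk1, Rabgap1 and Lbhd1. Lum, which encodes the matrix proteoglycan lumican, had SCI end peaks of scores 13.5 and 10.4 and sham end peaks of 11.5 and 8.12, of which the first SCI peak and the last sham peak overlapped. Islr, a gene of fibroblast-like cells, had 2 SCI end peaks at its start (scores 8.27 and 5.10), each overlapped by a sham peak (12.6 and 9.42). Pdk1, a kinase gene of pyruvate metabolism, had an end peak at its start and its end in each list, and none overlapped. In SCI, Terf2ip had a peak at its start (score 6.89) and a higher one 948.5 bp from its end (score 20.6, top 3.25%), and Slc35b1 likewise (6.35 at the end and 20.6 at the start). In sham, Flcn, Ipo13, Mrpl46 and Rabgap1 had a peak at either end, with the higher one at the gene end in each. At the short genes Gm9376, Gm47978 and Olfr1281 (SCI) and Ifna7 (sham), 1 peak lay within 1 kb of both ends.

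The share of JAK-STAT3 pathway genes with an end peak lay within counting error of that of all genes. An SCI end peak stood at 5 of 30 members, 16.7% (5.64 to 34.7%), against 5.77% of all genes, and a sham end peak at 6 (interval 7.71 to 38.6%), against 13.3%. With a window of 5 kb the counts were 8 in SCI and 16 in sham, where 26.1% and 51.3% of all genes had a peak, so the SCI share was then close to that of all genes. Il11, a cytokine of the interleukin-6 family, had an SCI peak 588.5 bp from its end (chr7:4772880-4773043, score 12.3, top 16.0%) and no sham end peak. Lifr, a receptor of that family, had an SCI peak 546.5 bp from its end (score 10.5, top 23.4%). Il6st, the shared receptor subunit gp130, had an SCI peak at its end with the lowest score of the list, 5, and a sham peak at its start of 7.92 (top 52.2%). The kinase gene Jak1 had a shared peak inside the gene near its end (916.5 and 959.5 bp away), with scores of 8.64 in SCI (top 36.4%) and 12.8 in sham (top 23.1%). A sham peak of score 13.0 (chr11:100859187-100859376) lay between the starts of the neighbours Stat5a and Stat5b, 69.5 and 277.5 bp away, and SCI had none there but a peak of 8.08 at the end of Stat5a. Pias3, an inhibitor of STAT3, and the phosphatase gene Ptpn11 had sham end peaks of 10.2 and 7.01 and no SCI end peak.

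Known STAT3 targets had an SCI end peak at 3 of 30 members (2.11 to 26.5%, against 5.77% of all genes) and a sham end peak at 1 (0.0844 to 17.2%, against 13.3%). Hif1a, the hypoxia-inducible factor gene, had its SCI peak 60.5 bp from the start (chr12:73901182-73901345, score 7.63, top 46.5%). Irf1, an interferon regulatory factor gene, had 1 of 7.49 (top 47.4%) 975.5 bp from its end, and the anti-apoptotic gene Bcl2 1 of 6.95 (top 55.6%) 89.5 bp from its end. None of these positions was shared. Ccnd1, the cyclin D1 gene, had a sham end peak of 8.18 (top 48.7%). Among immediate early genes, the AP-1 subunit gene Fosl1 (score 10.97, top 20.9%) and the nuclear receptor gene Nr4a2 (score 5.66, top 80.7%) had an SCI end peak, and Klf4 a sham end peak of 23.7 (top 5.68%). Of 22 members these made 9.09% in SCI (1.12 to 29.2%) and 4.55% in sham (0.115 to 22.8%), and both intervals include the share of all genes.

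Reactive astrocyte genes had no SCI end peak at any of 36 members (0 to 9.74%, which includes the 5.77% of all genes), and a sham end peak at 6, 16.7% (6.37 to 32.8%, which includes the 13.3% of all genes). With equal numbers of peaks 3 members had one in sham, where 5.88% of all genes did. With a window of 5 kb 8 members had an SCI peak and 24 a sham peak, where 26.1% and 51.3% of all genes had one. The highest of the sham end peaks lay at the complement inhibitor gene Serping1 (chr2:84776251-84776440, score 24.8, top 4.96%), the glycosyltransferase gene B3gnt5 (17.9, top 11.5%) and the small heat-shock protein gene Hspb1 (10.1, top 34.8%). Of 20 resting astrocyte genes, 2 had an SCI end peak and 3 a sham end peak. The glutamate transporter gene Slc1a3 had an SCI peak of 5.61 at its end (top 81.5%), and the related Slc1a2 had sham peaks at its start (11.7 and 5.93) and its end (10.6). None of the 6 study genes (Zeb2, Stat3, Gfap, Socs3, Zeb1 and Vim) had an end peak in either list. The nearest peak centres to their ends lay 2.16 kb away in both lists for Zeb2 and Vim, and 2.33 kb (SCI) and 4.52 kb (sham) away for Stat3.

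Microglia and macrophage genes had an SCI end peak at 2 of 25 members, 8.00% (0.984 to 26.0%), and a sham end peak at 6, 24.0% (9.36 to 45.1%). Both intervals include the share of all genes, 5.77% in SCI and 13.3% in sham. With equal numbers of peaks 5 members still had a sham end peak, where 5.88% of all genes did, and no interval was computed for that count. With a window of 5 kb 7 members had an SCI peak and 15 a sham peak, where 26.1% and 51.3% of all genes had one. Both SCI members, Csf1r and the complement gene C1qa, also had a sham end peak. The C1qa peaks differed in place, with scores of 5.32 in SCI (top 84.0%) and 13.1 in sham (top 21.9%). In sham alone the highest lay at Spp1, at Spi1, the gene of the myeloid factor PU.1 (score 23.3, top 5.93%), and at the apolipoprotein gene Apoe (10.6, top 32.1%). Elane was the 1 neutrophil and lymphocyte gene of 16 with an SCI end peak, and Nkg7 that with a sham end peak (score 6.75). The neuronal tubulin gene Tubb3 had a shared peak at its end, of 7.34 in SCI and 8.45 in sham. Oligodendrocyte lineage genes had none in either list (0 of 20 each, 0 to 16.8%).

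Vascular and fibroblast genes had an SCI end peak at 1 of 20 members, Lum, and a sham end peak at 4, with Pecam1, the endothelial adhesion molecule gene, highest (15.6, top 15.7%). Cell cycle genes had an SCI end peak at 0 of 20 members (0 to 16.8%) and a sham end peak at 4 (5.73 to 43.7%), with the cyclin gene Ccnd2 highest in sham (27.3, top 3.76%). With equal numbers of peaks 2 of them had a sham end peak, where 5.88% of all genes did. Housekeeping genes had an SCI end peak at 0 of 20 and a sham end peak at 1 (0.127 to 24.9%). The intervals of these 3 lists include the 5.77% (SCI) and 13.3% (sham) of all genes. Over all 270 listed genes, 17 had an SCI end peak, 6.30% (3.71 to 9.89%), and 33 a sham end peak, 12.2% (8.56 to 16.7%). Both shares include that of all genes in their interval. The median number of end peaks per gene was 0 in each list and over all genes.

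Large receptor families stood below the share of all genes in both lists. Of 1106 olfactory receptor genes 3.16% (2.21 to 4.37%) had an SCI end peak and 6.96% (5.53 to 8.62%) a sham end peak. Of 353 vomeronasal receptor genes 1.13% (0.310 to 2.88%) and 4.53% (2.61 to 7.26%) did, and of 1092 predicted genes with a Gm symbol 4.21% (3.10 to 5.58%) and 7.69% (6.18 to 9.44%). Zinc-finger genes with a Zfp symbol had SCI end peaks at 5.33% and sham end peaks at 15.7% of 394 members. Mitochondrial ribosomal protein genes had SCI end peaks at 6 of 78 members, 7.69% (2.88 to 16.0%), and sham end peaks at 17, 21.8% (13.2 to 32.6%). Proteasome subunit genes had SCI end peaks at 5 of 48 members, 10.4% (3.47 to 22.7%), and sham end peaks at 4, 8.33% (2.32 to 19.98%), and both intervals include the share of all genes. Genes of receptor families lie in clusters and share sequence, so members are not independent. At genes shorter than 2 kb the stretches within 1 kb of each end overlap, so less sequence counts. The part of gene length was not tested.

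**Figure D5:**
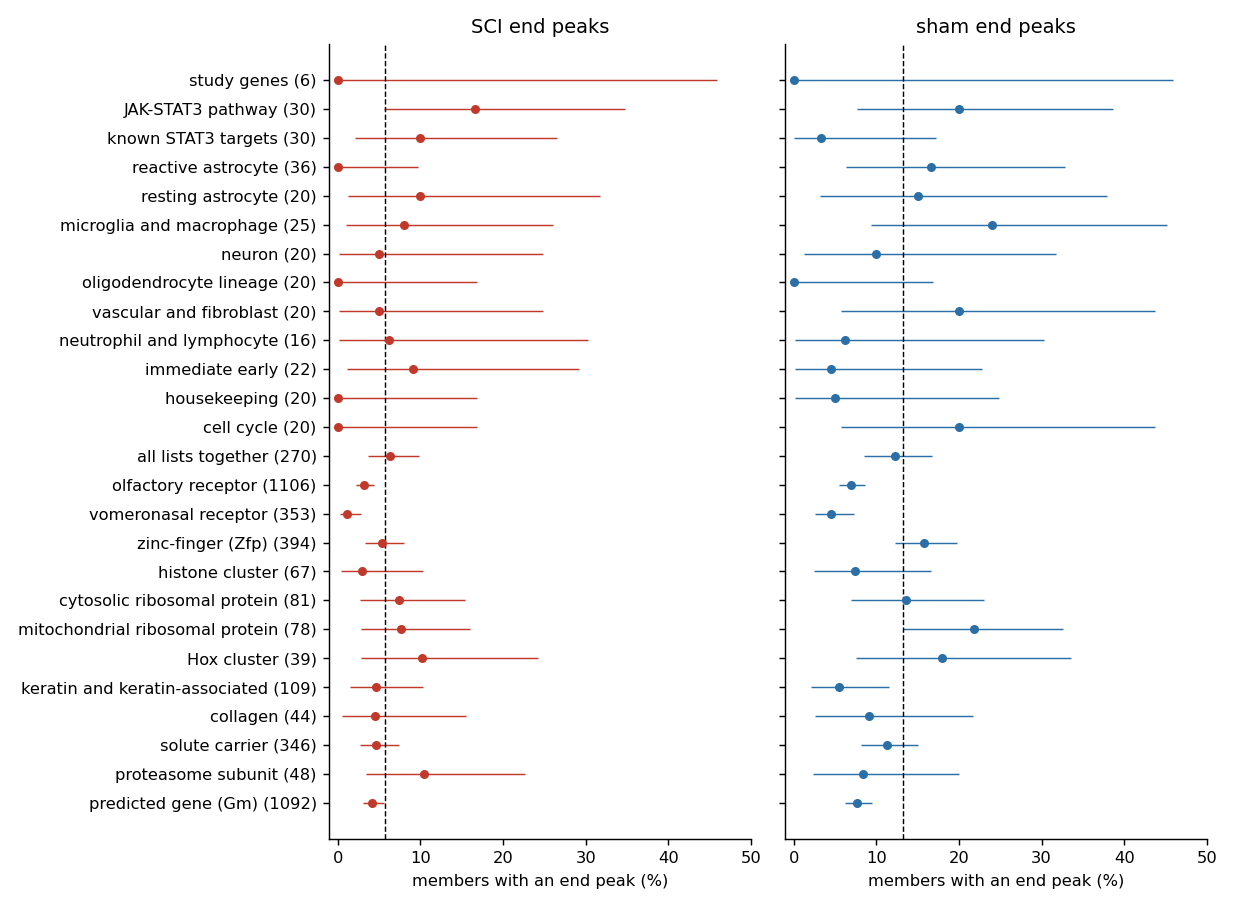
Percent of members with an SCI end peak (left) and a sham end peak (right) in each gene list and family, with the number of members in brackets. Points carry 95% exact binomial intervals, the dashed line is the share of all protein-coding genes (5.77% in SCI and 13.3% in sham), and the intervals of olfactory, vomeronasal and Gm genes lie below it in both panels.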

How the data were processed

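Peak lists of the 2 STAT3 ChIP libraries were used, matched to samples by title. Reads were aligned with Bowtie2 to mm10, per the submitters' processing notes. Which caller made the peaks was not given in the sources used here, and neither was the control or threshold. The lists deposited by the authors hold positions, a score per peak, a −log10 value where the layout places q-values, and a summit offset. The −log10 value was described only, and the scale of the authors' score between lists is unknown, so scores and ranks were used within a list. Read counts are not part of the lists, so depth is unknown.

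Gene ends came from RefSeq GRCm38.p6, and strand and promoter windows from its promoter table, which matched 17273 of 21627 genes. Windows whose start lay within 1 kb of the gene start were used (15533). CpG classes are tertiles of these windows. Shares carry exact binomial, densities exact Poisson, and density ratios conditional exact binomial intervals, all at 95%. Peaks inside the rule at ends of several genes count once per list and once per gene. The named genes are the study genes, those at the 10 highest end peaks of each list and the 10 best shared ones, for each list up to 6 members with an SCI end peak and up to 3 with sham alone, and genes with end peaks at both ends or the most end peaks. Of these, 1 gene is not reported here. The members, gene lists and families were chosen with earlier results of these data known. Counting and density steps were tested on simulated peaks. With 1 library per condition no test was run. Alternatives were other windows, score limits, equal numbers, other overlap rules and summits. Scripts ran under Python 3.11.15 with scipy 1.17.1, matplotlib 3.10.9, pandas 2.3.3 and numpy 2.4.6.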

Additional observations from a re-analysis of the deposited data

How the results depend on the processing

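Shares moved with the window. End peaks made up 1.60% (SCI) and 1.61% (sham) at 500 bp, 6.46% and 6.72% at 2 kb, and 15.2% and 15.7% at 5 kb. With all annotated genes they were 7.21% and 7.03%. In sham the share was 3.37% for scores at or above the median and 3.38% with equal numbers of top-scoring peaks. The share at starts was 52.6% (SCI) and 51.3% (sham) at 5 kb, and in sham 43.3% at 500 bp, 49.1% at 2 kb and 43.6% with equal numbers. Shared SCI end peaks were 25.9% at 5 kb, 15.1% with equal numbers, 14.7% with an overlap of 50% of both peaks and 29.8% with centres within 1 kb. For sham these were 10.2%, 13.96%, 5.90% and 12.1%, and 7.82% for scores at or above the median.

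Genes with an end peak numbered 612 (SCI), 1446 (sham) and 169 (both) at 500 bp, 2472, 5598 and 1125 at 2 kb, and 5654, 11091 and 3716 at 5 kb. For scores at or above the median they were 631, 1534 and 163. With equal numbers sham had 1272 and both lists 254. Of the 270 listed genes, 69 (SCI) and 148 (sham) had a peak at 5 kb, and 19 in sham with equal numbers. The shares of all genes were 26.1%, 51.3% and 5.88% in that order. Of all counts of lists and families under the 5 kb window or equal numbers, 71 moved by over 1.5 times and 7 did not.

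Runs of at least 15 A or T stood in 26.1% (SCI) and 24.9% (sham) of windows with a peak, against 1.51% of all windows. In sham the share with runs of at least 12 was 42.3% with the peak centre inside the window, 45.8% for scores at or above the median and 52.4% with equal numbers. The density ratio inside the start was 0.447 in SCI for scores at or above the median and 0.461 in sham without scores of the square-root form. The ratio inside the end was 0.485 in SCI without those scores, and upstream of the start 0.804 in sham at isolated ends (genes of at least 10 kb with no other end within 5 kb). The alternatives on summits, runs and density were chosen after seeing the data. Every density ratio stayed on its side of 1 under these alternatives, and the motif shares stayed within their main intervals.

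No paired analysis was possible because each condition has 1 library. Depth, input and replicates limit all values, and sequence was read in promoter windows only.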

Other observations

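Promoter windows of RefSeq genes that are not protein-coding, which hold no end peak by the rule of their own gene, also held runs more often under a peak than elsewhere. Of 92 such windows with an SCI peak over them 36 held a run of at least 12 A or T, 39.1% (29.1 to 49.9%), and of 229 with a sham peak 94 did, 41.0% (34.6 to 47.7%). The share was 3.78% (3.44 to 4.15%) of all 11574 windows of this kind. In protein-coding genes the shares were 39.1% under SCI peaks, 32.9% under sham peaks and 2.70% of all windows, and the difference between the kinds of gene was not tested. This comparison was chosen after the runs under end peaks had been seen, and its cause was not tested.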
